A study of Mus musculus and synthetic RNA with 74 samples.

Results

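The genes described here are 10 genes of replication origin licensing in preimplantation mouse embryos, Mcm2, Mcm3, Mcm4, Mcm5, Mcm6 and Mcm7, which encode the MCM hexamer, Mcm10, Cdc6, Cdt1 and Gmnn. They were chosen by symbol, and all 10 were listed among the 20330 genes of the table for E2.5 and the 21199 genes of the table for E3.5. In the cell cycle, the origin recognition complex and CDC6 recruit CDT1 with the MCM hexamer to DNA, the hexamer is loaded as an inactive double ring, and CDC45, the GINS proteins and MCM10 later turn it into a moving helicase. Geminin, the product of Gmnn, binds CDT1 and blocks further loading once replication has begun. Cleavage embryos divide first on maternal transcripts and later on their own.

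The embryos came from intercrosses of mice heterozygous for a Mettl16 allele with a triple-stop codon cassette in exon 3 (1 line, made in the B6D2F1/J hybrid background and bred to C57BL/6JRj), collected as morulas at E2.5 or blastocysts at E3.5 from superovulated females. METTL16 is an m6A RNA methyltransferase. Polyadenylated RNA of single embryos was amplified by Smart-seq2, an unstranded full-length method, from 5 WT, 14 HET and 12 KO embryos at E2.5 and 18 WT, 9 HET and 12 KO embryos at E3.5, whose genotypes were read from the libraries themselves. A second experiment has 2 input and 2 m6A-IP libraries of a randomized synthetic RNA carrying the METTL16 nonamer. This RNA was first incubated with recombinant full-length human METTL16 and the methyl donor S-adenosylmethionine, and input and m6A-IP were then taken from the reactions. For the embryos, the deposited levels are the authors' mean of normalized counts over all embryos of a stage, genotypes pooled. These means carry no spread, and no level per embryo or per genotype was analysed here, so the effect of Mettl16 loss on the licensing genes is not described and the genotype labels could not be checked against Mettl16 in each embryo. The KO embryos make up 38.7% of the embryos behind the E2.5 means and 30.8% of those behind the E3.5 means. Each stage was normalized separately, so stages are set side by side in ppm, parts per 1000000 of the summed means of all genes of the stage, without a test. In a whole embryo, fewer cells of a type and less RNA per cell cannot be told apart.

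Both stages showed markers of their age. The 5 trophectoderm markers together (Cdx2, Gata3, Krt8, Krt18 and Elf5) stood at 113 ppm at E2.5 and 2859 ppm at E3.5, and the 5 oocyte markers (Zp1, Zp2, Zp3, Gdf9 and Bmp15) at 77.4 and 5.01 ppm. Of the 5 embryo markers, with a sum of 671 and 403 ppm, Pou5f1 (383 and 130 ppm) and Tfap2c (224 and 68.1 ppm) had lower values at E3.5, while Nanog (23.4 and 153 ppm), Sox2 (0.579 and 6.09 ppm) and Klf4 (40.4 and 45.6 ppm) had higher ones. The 4 primitive endoderm markers summed to 212 and 209 ppm but differed one by one. Gata6 (152 and 135 ppm) and Gata4 (53.8 and 9.32 ppm) had lower values at E3.5. Pdgfra (4.00 and 58.0 ppm) and Sox17 (3.03 and 6.40 ppm) had higher ones. The cumulus and granulosa markers summed to 0.183 and 0.254 ppm, with Foxl2 and Fshr not listed at E2.5, and the blood markers to 2.13 and 0.533 ppm. Mettl16 itself had a pooled mean of 33.0 ppm at E2.5 and 24.7 at E3.5.

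In the deposited annotation (mm10), genes on the minus strand were Mcm2 (chr6:88883474-88898780, 16 exons), Mcm3 (chr1:20803014-20820213, 17 exons), Mcm4 (chr16:15623897-15637400, 16 exons) and Mcm6 (chr1:128331575-128359705, 17 exons). Also on the minus strand were Mcm7 (chr5:138164589-138171862, 15 exons), Mcm10 (chr2:4990724-5012791, 20 exons) and Gmnn (chr13:24751845-24761937, 7 exons). On the plus strand were Mcm5 (chr8:75109509-75128439, 17 exons), Cdc6 (chr11:98907889-98923942, 12 exons) and Cdt1 (chr8:122568015-122573130, 10 exons). No other listed gene overlaps them, apart from Mir25, Mir93 and Mir106b inside Mcm7.

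The licensing genes were among the more abundant transcripts of the embryo at both stages. Of the 10 genes, 9 at E2.5 and 10 at E3.5 stood above the 90th percentile of all genes by the authors' mean, the exception being Mcm3 at the 89.4th percentile at E2.5. Their median percentile was 95.5 at E2.5 and 94.5 at E3.5, with a range of 89.4 to 97.1 and of 90.7 to 97.6. Cdc6 was the highest of the 10 at E2.5 and the lowest at E3.5, and Gmnn was the fourth at E2.5 and the highest at E3.5.

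The 6 hexamer genes differed more among themselves at E2.5 than at E3.5. The MCM subunits form a ring with 1 copy of each, and MCM2 and MCM5 sit on either side of the gate through which DNA enters. Mcm6 had an authors' mean of 6909 at E2.5 and 5271 at E3.5. Mcm2 had means of 4304 and 4433, and Mcm7 of 3627 and 3779. These were the 3 highest hexamer genes at E2.5, while Mcm5 was the highest at E3.5, just above Mcm6. Mcm5 had means of 3143 and 5290. Mcm4 had means of 2167 and 3888, and Mcm3 of 1783 and 3294. Mcm3 and Mcm4, the 2 lowest at E2.5, lay close to the other subunits at E3.5. The highest hexamer gene was 3.88 times the lowest at E2.5 and 1.61 times at E3.5, and per kilobase of merged annotated exons these ratios were 2.58 and 1.46. For Mcm6 these are 4431 nt, which include a rarely used long last exon. Over the 2966 nt of NM_008567 it had 2329 and 1777 per kilobase, against 604 and 1083 for Mcm4, the lowest. The per-kilobase ratios would be larger with that length. The coefficient of variation over the 6 genes went from 50.4% to 19.0%, and per kilobase of merged exons from 39.8% to 15.95%. Their summed gene means stood at 931 ppm at E2.5 and 956 ppm at E3.5, a ratio of 1.03. This ratio depended on the part of the transcripts read, since it was 0.887 with summed exons and 1.76 with last exons alone, each in ppm of the same part over all genes, so no direction between stages is read for the sum.

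**Figure D1:**
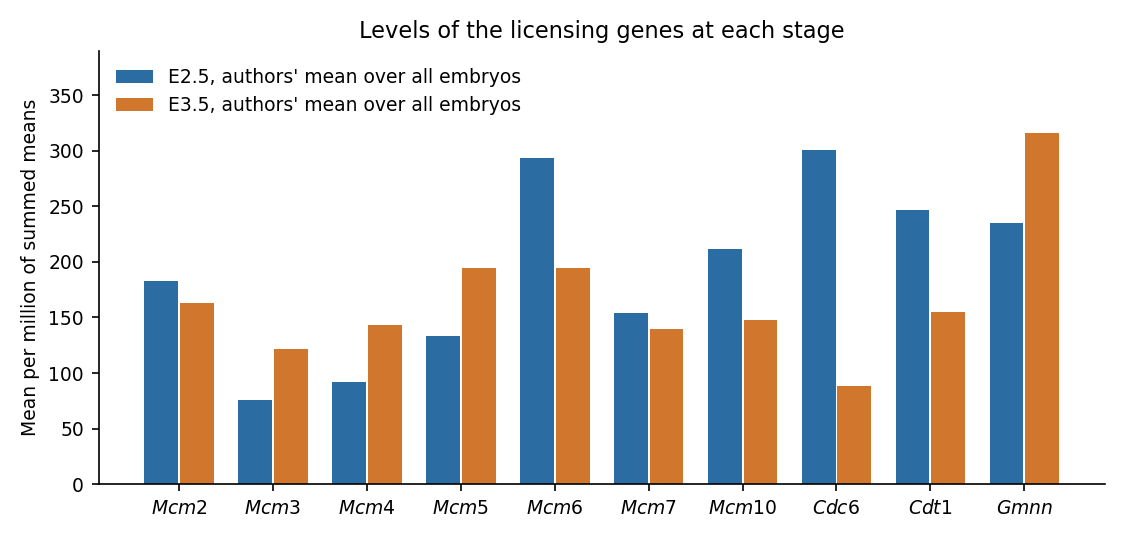
Bars give, on an axis from 0, the authors' mean over all embryos of a stage (31 at E2.5, 39 at E3.5) in ppm of the summed means for the 10 genes; pooled means carry no error bars. Cdc6 is the tallest bar at E2.5 (301) and the shortest at E3.5 (88.2), while Gmnn is the tallest at E3.5 (316).

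Of the loaders, Cdc6 was the gene whose level differed most between the stages. CDC6 is the ATPase that joins the origin recognition complex to load MCM, and Cdc6 stood at 301 ppm at E2.5 and 88.2 ppm at E3.5, a ratio of 0.293. Set against the hexamer within each table, Cdc6 equalled 32.3% of the summed hexamer means at E2.5 and 9.22% at E3.5. Summed exon means gave 31.03% and 9.07%, and the last exons alone gave 33.8% and 8.17%, so the shift was of similar size whichever part of the transcripts was read. Over the 7599 genes with a mean of at least 100 at both stages, the log2 ratio of E3.5 to E2.5 ppm had a median of 0.18 with quartiles of -0.59 and 0.98, and Cdc6, at -1.77, stood at percentile 6.54. The oocyte and trophectoderm markers given above also differed between the stages, and their part in this difference was not tested.

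CDT1 carries the hexamer to the origin, and its destruction in S phase ends licensing. Cdt1 stood at 247 ppm at E2.5 and 155 at E3.5, equal to 26.5% and 16.2% of the hexamer. Gmnn stood at 235 and 316 ppm, equal to 25.2% and 33.0% of the hexamer. The ratio of Gmnn to Cdt1, inhibitor over target, was 0.953 at E2.5 and 2.04 at E3.5 by gene means, which are not corrected for length, and 2.14 and 4.58 per kilobase of exon. The last exons alone gave 1.04 and 1.23 and summed exons gave 1.26 and 3.28. The ratio was thus higher at E3.5 by gene means, by summed exons and by last exons. The value per kilobase is the gene-mean ratio times a fixed ratio of lengths, so it adds no separate reading of the stages. At E2.5 Gmnn stood below Cdt1 only by gene means without a length correction. Per kilobase it stood above Cdt1 in each reading, with 13705 against 4868 by all exons and 6893 against 4002 by the last exon. At E3.5 the first exon of Cdt1 had 0.0239 of the reads per kilobase of its last exon, while that of Gmnn had 0.901. Mcm10, whose product activates the loaded helicase, stood at 211 and 148 ppm, equal to 22.7% and 15.5% of the hexamer.

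By gene means, the stage ratios of the other members lay within or close to the quartiles of all genes. The log2 ratios of E3.5 to E2.5 ppm were 0.68 for Mcm3, 0.64 for Mcm4, 0.55 for Mcm5 and 0.43 for Gmnn. They were -0.16 for Mcm2 and -0.15 for Mcm7. Mcm10, at -0.52, lay just above the lower quartile, Mcm6, at -0.59, at it and Cdt1, at -0.67, below it. With last exons alone, Mcm2, Mcm6, Mcm7 and Mcm10 had a ratio of the opposite sign, so no direction between stages is read for these 4 genes. The last exons also gave larger log2 ratios of 1.15 for Mcm3, 1.897 for Mcm4 and 1.28 for Mcm5, and smaller ones of 0.15 for Gmnn and -0.09 for Cdt1. By last exons the quartiles of 7408 genes were -0.54 and 1.14, so Mcm4 and Mcm5 lay above the upper quartile, Mcm3 at it and Cdt1 between the quartiles. Cdc6, at -1.23, stood at percentile 11.6 of these genes.

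Levels of different genes can be compared per kilobase of exon. Gmnn was the highest of the 10 at both stages, with an authors' mean of 5666 per kilobase at E2.5 and 8773 at E3.5, and it ranked first by gene estimate, by all exons, by internal exons and by the last exon alone. By gene estimate Cdt1 followed with 2652 and 1916 per kilobase. The lowest at E2.5 was Mcm4 with 604 per kilobase, next to Mcm3 with 618, and the lowest at E3.5 was Cdc6 with 509 per kilobase. Below Gmnn the order depended on the exons read. Cdt1, for one, ranked between 2 and 4 at E2.5 and between 2 and 8 at E3.5, with rank 8 from internal exons. The annotated length matters for Mcm6. A rarely used long last exon takes part in its 4431 nt of merged exons, and over the 2966 nt of NM_008567 its level was 2329 per kilobase at E2.5 and 1777 at E3.5, the third highest of the 10 at both stages.

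Among the partners of the licensing genes, taken from textbook lists, the origin recognition complex and the firing factors had lower median percentiles than the hexamer, by gene mean and per kilobase. By gene mean, the hexamer had a median percentile of 94.0 at E2.5 and 94.6 at E3.5, and per kilobase of 91.7 and 92.0. By gene mean, the 6 subunits of the origin recognition complex, on which the hexamer is loaded, had a median percentile of 84.2 at E2.5 and 88.0 at E3.5, with all 6 above the 75th percentile and 1, Orc6, above the 90th. Per kilobase the median percentile was 82.2 and 82.5, and the complex ran from Orc4 (173 at E2.5, 139 at E3.5) to Orc6 (1577 and 2254). The 5 CMG partners, Cdc45 and Gins1 to Gins4, had a median percentile of 89.0 and 87.5 by gene mean. Per kilobase it was 93.5 and 89.0, above that of the hexamer at E2.5 and below it at E3.5. Among them Gins2 had a mean of only 66.8 at E2.5 and 624 at E3.5, while Cdc45 had means of 4167 and 1722. The 5 firing factors had a median percentile of 80.7 and 78.0 by gene mean and of 76.5 and 74.0 per kilobase, from Recql4 (26.2 and 39.4 per kilobase) to Topbp1 (461 and 405 per kilobase).

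By gene means, the cyclin genes had higher pooled levels at E2.5 than at E3.5. Summed and last exons were set side by side for the 10 members only. No direction between stages is therefore read for the partner genes. Ccne1, a cyclin E gene that drives entry into S phase with CDK2, stood at 635 ppm at E2.5 and 86.9 at E3.5, and Ccna2, the S phase cyclin A gene, at 741 and 282 ppm. Ccne2 had means of 147 and 50.8. Cdk2 stood at 112 and 146 ppm, and Dbf4, the activator of the CDC7 kinase, at 70.2 and 118 ppm. Of the genes for Cdt1 turnover, Dtl, the substrate adaptor that targets CDT1 on replicating DNA, stood at 154 and 32.0 ppm and Skp2 at 112 and 17.3 ppm, whereas Ddb1 stood at 372 and 457 ppm. By gene mean, the 5 genes of this list had a median percentile of 92.5 at E2.5 and 79.3 at E3.5. The 17 fork genes, polymerases, clamp and clamp loader, had a median percentile of 84.1 and 90.2, with 4 above the 90th percentile at E2.5 and 10 at E3.5. Pcna, the sliding clamp, had a mean of 2781 at E2.5 and 8200 at E3.5. The related Mcm8, Mcm9, Mcmbp and Mcmdc2, which are no part of the hexamer, had a median percentile of 69.5 and 71.4, from Mcmdc2 (means of 62.0 and 210) and Mcm9 (127 and 134) to Mcmbp (1698 and 2342).

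**Figure D2:**
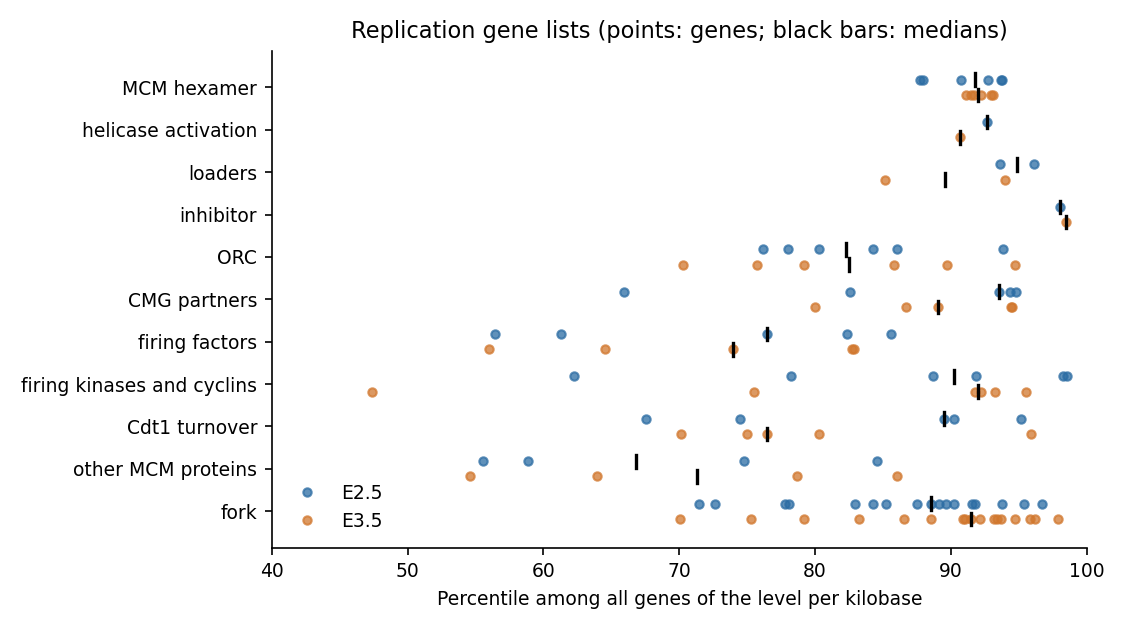
Each point is a gene and gives the percentile of its pooled mean per kilobase of exon among all genes with a length (E2.5 and E3.5 in separate colours), and black bars mark list medians. The hexamer genes sit between the 87.7th and 93.8th percentile at E2.5 and close together at E3.5, and Gmnn is at the 98.0th and 98.4th percentile. Mcm6 is placed by its 4431 nt of merged exons, a rarely used long last exon included.

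The position of the reads along the transcripts differed between the stages. Levels of single exons and introns are the authors' mean normalized reads of that feature, per kilobase. For each gene the exons of the RefSeq transcript with the most exons were split at the middle of the transcript, and the level per kilobase on the 5' side was divided by that on the 3' side. The ratio was lower at E3.5 in 10 of the 10 genes, with a median of 0.929 at E2.5 and 0.278 at E3.5. The same held for 93.2% of the 6121 genes with at least 5 exons and a mean of at least 100 at both stages, whose medians were 1.895 and 0.871, and for 94.2% of the 4399 genes in the length range of the members, so a share of 10 in 10 is near the background. Only Gmnn, the shortest at 977 nt, kept a similar ratio, 1.78 and 1.58. Mcm2 had the largest shift, from 0.549 to 0.0669. Its first exon had 635 reads per kilobase at E2.5 and 28.7 at E3.5, against 2626 and 4215 in its last exon, so the first exon was at 0.242 and 0.0068 of the last. In Mcm7 the first exon was at 0.643 and 0.0601 of the last, and in Cdt1 at 0.444 and 0.0239. Each exon was also placed by the distance of its middle from the 3' end. The long last exons of Cdc6 and Mcm5 thereby fell beyond 500 nt, though they reach the 3' end. Over the exons of all 10 genes, the share of the gene's exon reads in an exon was a median of 2.54 times as large at E3.5 as at E2.5 within 500 nt of the 3' end (10 exons), 1.2 times from 500 to 1000 nt (25 exons), 0.793 times from 1000 to 1500 nt (24 exons), 0.438 times from 1500 to 2000 nt (26 exons) and 0.340 times beyond 2000 nt (62 exons).

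**Figure D3:**
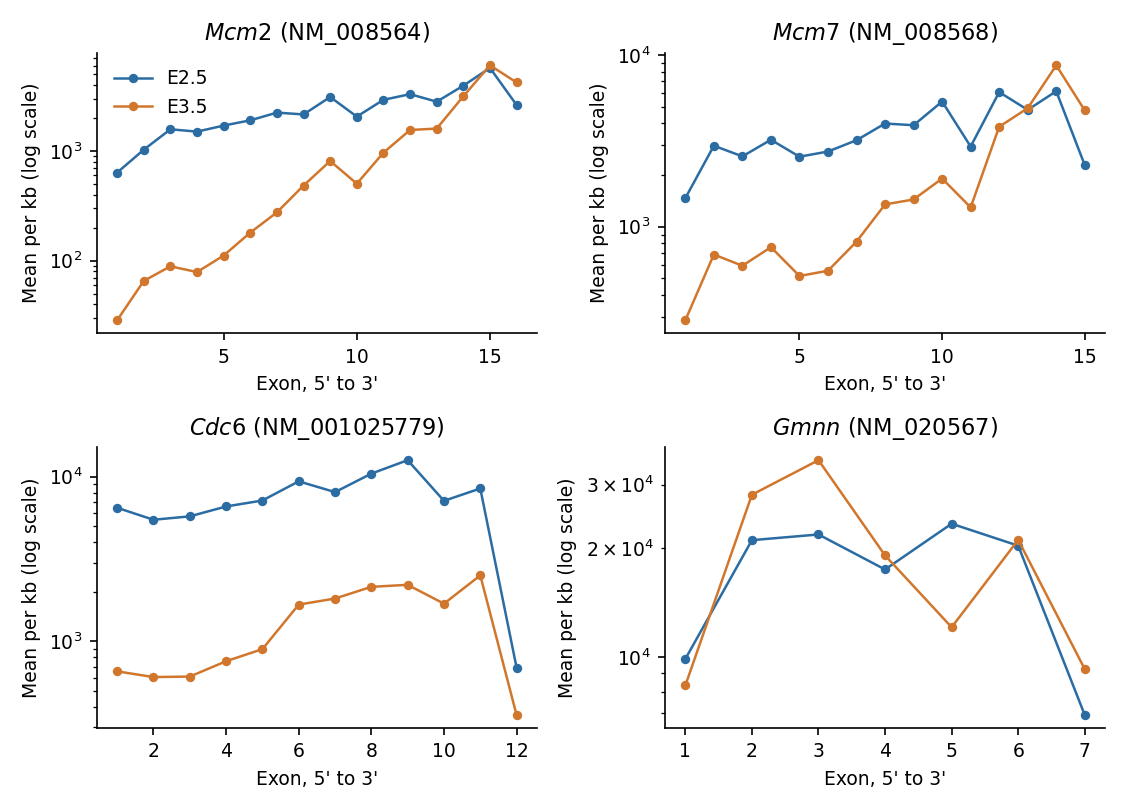
Authors' mean per kilobase (log scale) for each exon of Mcm2, Mcm7, Cdc6 and Gmnn from 5' to 3', at E2.5 and E3.5. In Mcm2 and Mcm7 the stages meet at the 3' exons and part toward the 5' end, in Cdc6 every exon is lower at E3.5, and in Gmnn exon 5 is the internal exon that is lower at E3.5.

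At E2.5 the last exon had fewer reads per kilobase than the exon before it in all 10 genes, and at E3.5 in 9 of them, Cdt1 being the exception. The same held for 96.5% of 6102 genes at E2.5 and 81.8% of 6110 at E3.5, so these counts are near the background. Cdc6 had the lowest ratio of the 10 at both stages, 0.0815 and 0.142, next to Mcm5 with 0.162 and 0.298, and stood at percentile 9.82 and 15.4 of these genes. Its last exon, 2827 nt long, had 691 reads per kilobase at E2.5 against 8480 in the exon before it, and 356 against 2514 at E3.5, and the 5' side of Cdc6 exceeded its 3' side 10.6 times at E2.5 and 3.55 times at E3.5. Reads that only overlap the edge of a short exon also count towards its level per kilobase, and the part of exon length in this difference was not tested. The share of an exon at E3.5 relative to E2.5 did not rise evenly toward the 3' end in every gene. In Mcm10, exons 2 and 3 had ratios of 1.199 and 1.06, against 0.336 to 0.544 in exons 4 to 12, and in Mcm4, exons 5 and 6 had 0.185 and 0.202, below the exons on either side. In Gmnn, exon 5 (83 nt) held 14.5% of the exon reads at E2.5 and 6.72% at E3.5, a ratio of 0.463, while its other exons after the first had ratios between 0.932 and 1.44. Relative to exon 6 its reads went from 0.860 to 0.428, and relative to exon 4 from 0.817 to 0.386. These exons were picked after their values were seen.

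Where a gene has several RefSeq transcripts, the first exons showed which start was read. Cdc6 has an upstream first exon (NM_001025779, chr11:98907889-98907981) with means of 602 at E2.5 and 61.0 at E3.5, and a downstream one (NM_011799, chr11:98908151-98908319) with 3.65 and 0.577, so the upstream exon had 99.4% and 99.1% of the reads of the pair. Mcm10 has an upstream first exon (NM_027290, chr2:5012705-5012791) with means of 124 and 35.8, and a downstream one (NM_001305259, chr2:5011895-5012344) with 7.69 and 8.61. The ratio of upstream to downstream reads was thus 16.1 and 4.16 in Mcm10. Its downstream exon had only 17.1 and 19.1 reads per kilobase, and the intron after that exon had 5.58 and 3.79. The smaller share of 5' reads at E3.5 moves with this ratio, and its part was not tested. Mcm5 has 2 donor sites for its first exon that lie 24 nt apart. The intron counted from the nearer donor had means of 72.7 and 8.64, and the intron without these 24 nt had 1.93 and 0.969, so nearly all of these reads touched the 24 nt that belong to the exon of NM_008566. In Mcm6 the last intron (chr1:128332052-128333516), which the alternative transcript NM_001313695 keeps as exon, had 10.6 reads per kilobase at E2.5 and 29.6 at E3.5, equal to 0.345% and 0.663% of the last exon.

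Promoter sequences, which the choice of genes did not use, held words of 1 kind in most of the licensing genes. E2F transcription factors control many S phase genes through sites of the kind TTTCCCGC, TTTGGCGC, TTTGCCGC or TTTCGCGC. Of the 8 members with a promoter in the RefSeq table (GRCm38.p6, 250 bases before to 50 after an annotated start, without Mcm4 and Gmnn), 6 held at least 1 of these 8-base words on either strand, namely Mcm3, Mcm5, Mcm6, Mcm7, Cdt1 and Cdc6. Of all 32851 promoters there, 2.26% held one. The CCAAT box, searched as CCAAT on both strands, was in Mcm2, Mcm3, Mcm5, Mcm6, Mcm7 and Mcm10 and in 37.4% of all promoters, and the word TTTGAA, the core of the cell cycle homology region, was in Mcm2 alone and in 17.9% of all promoters. In Mcm7 a word match runs into a CCAAT. These are matches of letters and not measured sites. A window around 1 match of each of 5 genes is shown with the matching bases in capitals, from GRCm38.p6, because these genes of the hexamer and its loader hold words of this kind, TTTGGCGC in Mcm3, Mcm6 and Cdt1 and TTTCGCGC in Mcm5 and Mcm7. Overlapping matches run together, and a second match in Mcm3 is cut by the edge of the window.
Mcm3, chr1:20820263-20820292, minus strand: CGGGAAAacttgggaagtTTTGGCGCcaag
Mcm5, chr8:75109345-75109374, plus strand: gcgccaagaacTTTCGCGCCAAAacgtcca
Mcm6, chr1:128359797-128359826, minus strand: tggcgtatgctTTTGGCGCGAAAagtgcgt
Mcm7, chr5:138171849-138171878, minus strand: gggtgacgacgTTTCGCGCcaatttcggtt
Cdt1, chr8:122568035-122568064, plus strand: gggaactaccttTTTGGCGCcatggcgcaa

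For Cdc6 the promoter in the table belongs to the downstream start, where few reads began. The 300 bases around the start of the exon that was read, taken from GRCm38.p6 and starting 250 bases before it, are shown for this reason, with the 1 match to an E2F word in capitals, which begins 48 bases before the exon. They also held 1 CCAAT, on the other strand and left in lower case, which the search of the downstream promoter did not cover.
Cdc6, chr11:98907639-98907938, plus strand: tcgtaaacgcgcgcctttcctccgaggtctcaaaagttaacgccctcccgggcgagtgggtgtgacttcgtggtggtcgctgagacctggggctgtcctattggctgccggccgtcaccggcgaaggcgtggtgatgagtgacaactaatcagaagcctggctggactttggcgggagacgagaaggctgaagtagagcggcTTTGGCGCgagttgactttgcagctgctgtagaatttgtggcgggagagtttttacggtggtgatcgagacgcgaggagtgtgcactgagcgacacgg

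Intron reads of the licensing genes were few. Unspliced or intron-retaining RNA gives reads in introns, as does antisense RNA in unstranded libraries, and the level per kilobase of a gene's introns was set against that of its exons. In the 10 genes the introns stood at a median of 0.263% of the exons at E2.5 and 0.352% at E3.5, against medians of 0.725% and 1.29% over 7325 genes. All 10 genes at E2.5 and 9 at E3.5 were below the median of all genes, the exception being Mcm10 with 1.46% at E3.5. The lowest was Mcm6 at E2.5 with 0.0871% and Gmnn at E3.5 with 0.115%, and the highest at E2.5 was Mcm7 with 0.717%. For Mcm5, 56.5% of the intron reads at E2.5 lay in the intron counted from the nearer donor, and with the other donor its percentage went from 0.405% to 0.182%. In Mcm10 the reads were uneven over its 19 introns. Intron 4 (126 nt) had 77.6 reads per kilobase at E2.5 and 227 at E3.5, and intron 6 had 19.7 and 82.7, while intron 8, the longest, had 0.639 and 0.946.

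**Figure D4:**
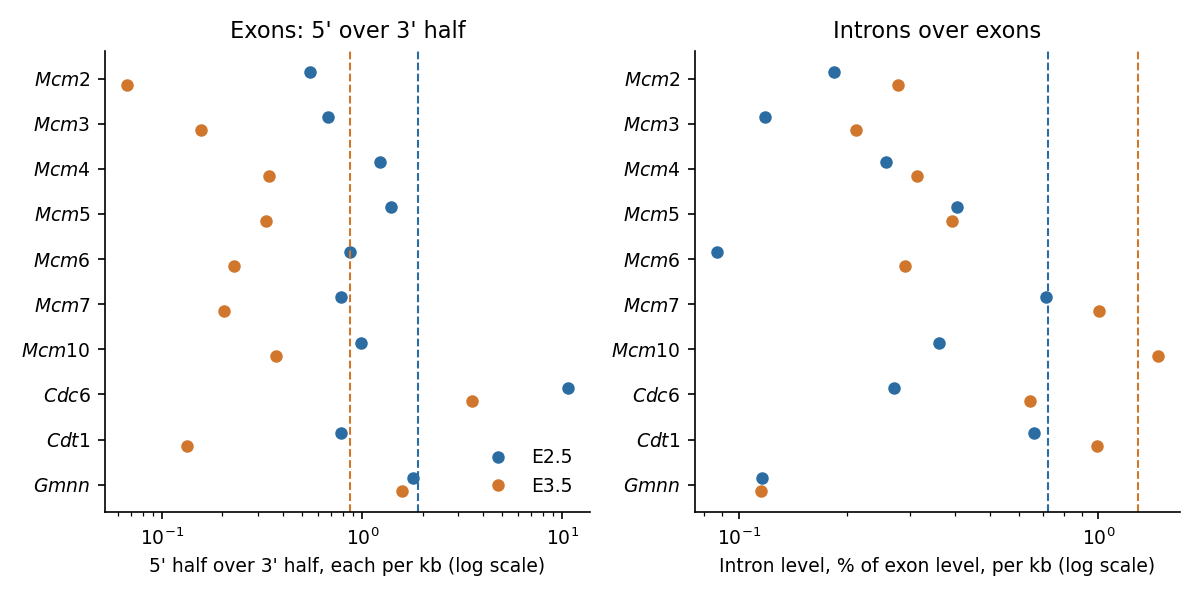
Left, exon level on the 5' side of the transcript's middle over that on the 3' side, and right, level of the introns as a percentage of the exons, both per kilobase and on log axes, for the 10 genes at each stage; dashed lines are the medians of all genes of the stage. Points for E3.5 lie to the left of those for E2.5 for every gene in the left panel, and only Mcm10 at E3.5 (1.46%) lies right of its stage's line in the right panel.

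One intron of Mcm7 carries other genes. Intron 13 of 14 (chr5:138165162-138165909, minus strand, 748 nt) holds the precursors of miR-106b, miR-93 and miR-25, and it had means of 34.1 at E2.5 and 70.0 at E3.5, or 45.6 and 93.6 reads per kilobase. It was the highest of the 14 introns per kilobase at both stages, followed by intron 14 with 35.97 and 70.2. Intron 1, at the other end of the gene, had 35.7 and 5.36. Of the exons around it, exon 13 had 4784 reads per kilobase at E2.5 and 4894 at E3.5, and exon 14 had 6143 and 8694. Libraries of polyadenylated RNA do not measure mature miRNAs, so these are reads of the host intron. The mature miRNAs of the cluster, from RefSeq with GRCm38.p6 coordinates, are shown because miR-106b-5p and miR-93-5p share a seed, bases 2 to 8, given in capitals, and miR-25-3p has another.
miR-106b-5p, chr5:138165787-138165807, minus strand: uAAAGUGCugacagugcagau
miR-93-5p, chr5:138165574-138165596, minus strand: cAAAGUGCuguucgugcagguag
miR-25-3p, chr5:138165332-138165353, minus strand: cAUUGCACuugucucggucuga

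**Figure D5:**
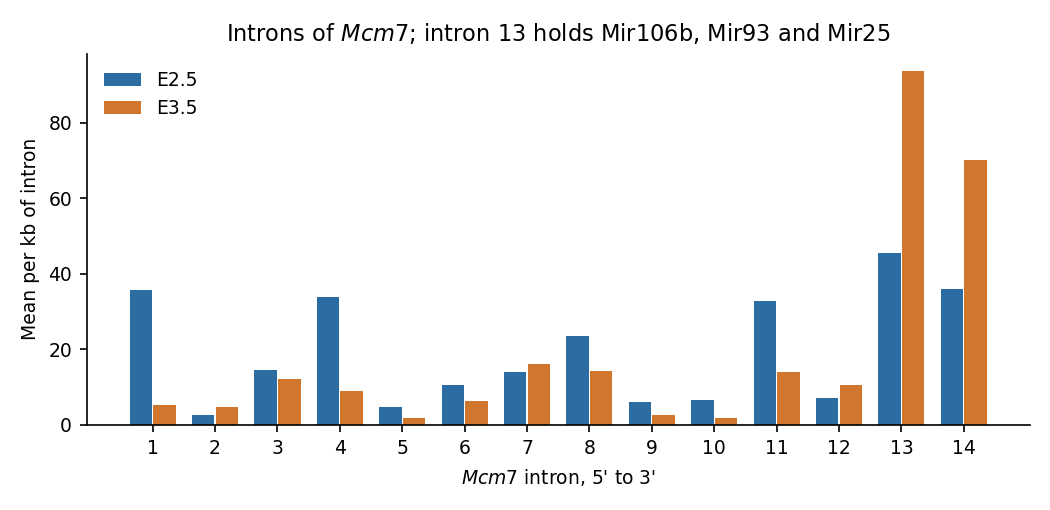
Authors' mean per kilobase of each of the 14 introns of Mcm7, numbered from 5' to 3', at E2.5 and E3.5, on an axis from 0. Intron 13, with the miRNA precursors, is the highest at both stages (45.6 and 93.6), and intron 1 is among the higher introns at E2.5 only.

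METTL16 methylates the nonamer UACAGAGAA within structured RNAs, and its known targets are the U6 snRNA and the transcript of Mat2a, the gene for an S-adenosylmethionine synthetase. The licensing genes were searched for the nonamer. None of the 14 annotated spliced transcripts of the 10 genes held it, against 3.43% of all 34612 transcripts. In the gene bodies, introns included, 2 of the 10 genes held 1 match each on the sense strand (2 matches over 154 kb), against 35.7% of 24469 genes. The windows of 11 bases before and 10 after the nonamer, the frame of the randomized library, are shown with the nonamer in capitals, from GRCm38.p6, since they are the only member sequences to which the in vitro table can be related.
Mcm4, chr16:15630550-15630579, minus strand: tcgactgagctTACAGAGAAgtagagaggt
Mcm10, chr2:5004793-5004822, minus strand: ggttggcattcTACAGAGAAcgttccgctg

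The Mcm4 match lies in intron 9 of 15, 39 nt inside the nearer intron end, and the Mcm10 match in intron 7 of 19. Both introns were sparsely read, with 1.66 reads per kilobase at E2.5 and 1.85 at E3.5 for Mcm4 and 3.07 and 6.49 for Mcm10. Folded alone with RNAfold, the Mcm4 window was ....((..((((......))))..)).... with a minimum free energy of -2.9 kcal/mol, and the Mcm10 window ((..(((.((((....)))).))))).... with -3.8 kcal/mol. The structure of the Mcm10 window was not among the 36835 structures listed in the in vitro table.

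The structure of the Mcm4 window was listed, as the sum of all synthetic RNAs that fold so and not as the Mcm4 sequence. It had normalized reads of 1121 and 1114 in the input libraries numbered 11 and 12 and of 703 and 464 in the m6A-IP libraries. Both m6A-IP values lay below both input values. By the paper's list of libraries, the m6A-IP library numbered 12 had far fewer filtered reads than each of the others. Its part in these values and their spread was not tested. In limma's moderated test on log2 of the value plus 5 the m6A-IP over input ratio was -0.96 on the log2 scale, with a standard error of 0.22 (2 against 2 libraries) and an adjusted p of 0.033, below the threshold of 0.1. Lower signal in m6A-IP was called for 27.2% of all structures, so this is a common outcome in the table. The Mcm4 structure stood at percentile 18.4 of the log2 ratios. The libraries were not paired by number in this fit. With a block for the number, the ratio was the same and the adjusted p was 0.0015 (limma). The call was lost without either input library, with a log2 ratio of -0.96 and an adjusted p of 0.228 without input 11, and of -0.97 and 0.222 without input 12 (limma). With 1 input library left, the spread comes from the m6A-IP libraries alone, and the lone input is assumed to vary like them. Scaled by library totals, the median of all structures moved from -0.27 to -0.06 and the ratio was -0.73, which is -0.67 relative to that median against -0.70 before. The windows of the 5 nonamers in the last exon of Mat2a, folded in the same way, all had listed structures, with log2 ratios from -1.72 to -0.22, of which 3 were called lower in m6A-IP. The ratio of the Mcm4 structure lay within this range. The range ran from percentile 3.05 to percentile 52.0 of the log2 ratios of all structures, so many other structures lie in it too.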

How the data were processed

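The authors aligned paired reads of single embryos to RefSeq transcripts (mm10) with Salmon 0.7.2, summed them to genes, counted exons and introns with featureCounts after alignment with STAR, and normalized both with DESeq2 1.18.1. The deposited signal for embryos is the mean normalized count per gene, exon or intron over all embryos of a stage. Other columns hold the authors' log2 fold changes between genotypes and adjusted p-values and were not used. In the in vitro table the deposited signal is the number of reads per RNAfold structure, divided by a size factor; its columns of fold changes and tests were not used either.

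From these, levels in ppm of summed means, per kilobase and percentiles were computed with pandas 2.3.3. Exon profiles used the RefSeq transcript with the most exons (ties went to the higher first exon). A read pair that touches several exons can count in each, and exon sums exceeded gene estimates 1.84 to 2.42 times at E2.5 and 1.08 to 1.74 times at E3.5. Depth per embryo is not in the pooled means. The paper lists the reads of each embryo library, with a wider range at E3.5 than at E2.5, and these were not used here. Values of the in vitro table went into limma 3.58.1 (R 4.3.3; trend, Benjamini-Hochberg, threshold 0.1) on log2 of the value plus 5, 2 m6A-IP against 2 input libraries, after a run on simulated data. 35992 of 36835 structures are above 0 in the m6A-IP library numbered 12 and all are in the others. The paper lists far fewer filtered reads for that library than for the others, and the fit gave all libraries the same weight. The methylation was done in duplicate, and by the paper a small part was kept as input while the rest went into m6A-IP. The paper compared m6A-IP with input in each replicate, and the labels use the numbers 11 and 12 for both. Same-numbered libraries thus likely come from the same reaction, though the methods do not state this of the numbers. The main fit did not pair them, and a replicate block is given as an alternative. P-values measure the spread between these libraries, which may be technical. Windows were folded with RNAfold 2.7.2.

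All 10 members are named, the members and lists were chosen with earlier results of these data known, and the choice of transcript and the readings of stage ratios by summed or last exons were made after seeing the data. Alternatives were summed exons, single exons, a minimum mean, other pseudocounts and scalings, a replicate block and each in vitro library left out.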

Additional observations from a re-analysis of the deposited data

How the results depend on the processing

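Counts of members above the 90th percentile of genes, below the median intron percentage, and with a lower ratio of 5' to 3' exons at E3.5 stayed within 1.5 times under the alternatives tried. Among genes whose mean reached 10, the median percentile of the 10 genes was 92.8 at E2.5 and 91.3 at E3.5. Cdc6 was 31.03% and 9.07% of the hexamer with summed exons and 33.8% and 8.17% with last exons. The ratio of Gmnn to Cdt1 was 1.26 and 3.28 with summed exons and 1.04 and 1.23 with last exons. The summed hexamer at E3.5 was 1.03 times its ppm at E2.5 by gene means, 0.887 times with summed exons and 1.76 times with last exons. With last exons, the log2 ratio of E3.5 to E2.5 was 0.41 for Mcm2, 0.27 for Mcm6, 0.78 for Mcm7 and 0.33 for Mcm10, opposite in sign to the gene means; the smaller share of 5' reads at E3.5 moves with this, and its part was not tested. Against the ranks by level per kilobase of all exons, 2 of 10 ranks were the same with internal exons and 4 of 10 with last exons, at either stage.

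For the structure of the Mcm4 window, the log2 ratio ran from -1.26 to -0.66 with each library left out (called lower in m6A-IP only without an m6A-IP library, where the spread comes from the inputs alone), was -0.97 with a pseudocount of 1, and kept its call with the replicate block (-0.96, adjusted p of 0.0015, limma). Deviations of same-numbered libraries from their group means correlated at 0.02 over 11379 structures. The main fit did not use the pairing by number, and the block called 15145 structures in place of 14657. A minimum mean of 10 removed no structure. Without an input library, 2975 or 2849 structures were called, and 29078 or 26343 without an m6A-IP library. With library totals, 52.4% of the calls were lower and 47.6% higher in m6A-IP, against 68.5% and 31.5%. The edgeR test on recovered reads was not run, because the values did not come back as whole reads.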

Other observations

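Among the genes that act at the replication fork, several had larger fold differences between the stages than any hexamer gene, by gene means in ppm. Last exons, which moved the stage ratios of the hexamer genes, were not read for these fork genes. Lig1, the ligase that seals Okazaki fragments, stood at 30.95 ppm at E2.5 and 136 ppm at E3.5. Pola2, a subunit of DNA polymerase alpha, stood at 126 and 345 ppm. Rpa3, a subunit of the single-strand binding protein RPA, stood at 10.7 and 37.8 ppm. Rpa2, of the same protein, stood at 244 and 147 ppm. The stages were normalized separately and these genes were named after their values were seen, so the values stand side by side without a test.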
